A study of Homo sapiens with 3 samples.

Results

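The genes described here carry out or restrain plasminogen activation and the start of blood clotting by tissue factor. They are the activators PLAU and PLAT, the receptor PLAUR, the inhibitors SERPINE2 and SERPINB2, tissue factor itself (F3), its inhibitors TFPI and TFPI2, and thrombomodulin (THBD). The list was set by name, with earlier results of these data known, so counts of its called genes are no independent evidence. All probes whose transcript accession matched one of these symbols in RefSeq were taken, which gave 11 probes for the 9 genes, among 25705 probes and 19699 genes named in this way. PLAU and TFPI had 2 probes each. PLAUR and F3 were also named among angiogenesis-related genes picked on these same arrays, so their rises are not independent evidence for that choice.

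RNA came from PANC-1, an established human pancreatic carcinoma line, kept for 24 h without an agent, with 20 µM cantharidin (CAN) or with okadaic acid (OA). The label of the OA array gives 20 µM, while the treatment text of the series states this dose only once, in wording that does not settle whether it holds for both agents. CAN, a compound from blister beetles, and OA, a toxin from marine algae, both inhibit protein phosphatase 2A (PP2A). There was 1 array for control, 1 for CAN and 1 for OA, all of a line grown in culture, so the differences have no replicate check and none was tested. The values of OA against control and of CAN against control share the same control array.

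Plasmin is a protease that dissolves fibrin and cuts matrix proteins. Cells make it from plasminogen with urokinase (PLAU) or tissue-type plasminogen activator (PLAT), and the urokinase receptor PLAUR holds urokinase at the cell surface, while serpins such as SERPINE2 and SERPINB2 block the activators. Tissue factor (F3) on a cell surface binds factor VII and starts coagulation, TFPI shuts this complex off, and thrombomodulin (THBD) turns thrombin towards activation of protein C. Pancreatic carcinoma is known for tissue factor on the tumour cells and for thrombosis in patients.

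RefSeq gave start sites on GRCh38.p14 in 9 windows for 7 of the 9 genes (all but PLAT and THBD). The 250 bases before the start are shown for F3, PLAUR and SERPINE2 (2 starts), which rose under both agents. SERPINB2 and TFPI2 are shown because, with F3 and PLAUR, they hold a match to TGANTCA, the AP-1 motif, set in capitals. F3 lies on the minus strand at chr1:94541760-94542009, PLAUR on the minus strand at chr19:43670170-43670419, SERPINE2 on the minus strand at chr2:224031479-224031728 and chr2:224038641-224038890, SERPINB2 on the plus strand at chr18:63887455-63887704 and TFPI2 on the minus strand at chr7:93890754-93891003.
F3: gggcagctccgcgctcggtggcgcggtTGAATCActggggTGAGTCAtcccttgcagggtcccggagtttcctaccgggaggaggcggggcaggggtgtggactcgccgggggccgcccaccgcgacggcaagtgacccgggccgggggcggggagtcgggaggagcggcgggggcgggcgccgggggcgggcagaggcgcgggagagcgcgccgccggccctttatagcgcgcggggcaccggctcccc
PLAUR: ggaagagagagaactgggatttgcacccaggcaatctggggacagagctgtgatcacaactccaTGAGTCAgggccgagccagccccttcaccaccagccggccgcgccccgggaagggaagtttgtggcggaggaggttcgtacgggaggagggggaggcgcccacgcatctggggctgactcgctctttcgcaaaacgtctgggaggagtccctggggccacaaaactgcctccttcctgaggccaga
SERPINE2, first window: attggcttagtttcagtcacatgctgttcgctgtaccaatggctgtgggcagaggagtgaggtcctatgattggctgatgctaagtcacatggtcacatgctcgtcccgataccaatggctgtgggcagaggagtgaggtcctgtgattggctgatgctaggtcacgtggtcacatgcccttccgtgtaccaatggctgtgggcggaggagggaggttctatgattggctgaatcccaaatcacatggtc
SERPINE2, second window: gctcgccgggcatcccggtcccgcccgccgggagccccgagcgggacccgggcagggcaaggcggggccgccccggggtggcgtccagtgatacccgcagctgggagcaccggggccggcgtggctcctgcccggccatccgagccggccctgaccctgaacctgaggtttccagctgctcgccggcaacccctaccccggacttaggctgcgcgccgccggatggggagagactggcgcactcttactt
SERPINB2: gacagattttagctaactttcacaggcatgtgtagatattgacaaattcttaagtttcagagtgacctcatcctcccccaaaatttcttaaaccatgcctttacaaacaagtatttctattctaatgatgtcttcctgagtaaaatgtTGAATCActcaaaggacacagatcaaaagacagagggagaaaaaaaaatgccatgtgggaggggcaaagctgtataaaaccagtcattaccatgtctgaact
TFPI2: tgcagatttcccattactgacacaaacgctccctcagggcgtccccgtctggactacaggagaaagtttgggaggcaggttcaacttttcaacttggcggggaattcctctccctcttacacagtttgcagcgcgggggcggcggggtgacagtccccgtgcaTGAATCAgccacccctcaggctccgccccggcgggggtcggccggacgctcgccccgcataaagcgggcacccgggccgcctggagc

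The TGANTCA motif reads the same way on both strands. F3 has 2 matches, at 223 to 217 and at 210 to 204 bases before the start. The match of PLAUR lies 186 to 180 bases before the start, that of SERPINB2 102 to 96 and that of TFPI2 87 to 81 bases before it. Neither window of SERPINE2, neither window of PLAU and not the window of TFPI holds one. Among all 35116 windows of this length, 6.57% hold at least 1 match. A match describes letters and is no measured site.

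Other motifs were searched on both strands as well. GGGCGG, the SP1 box, occurs in 42.6% of all windows, with 4 matches before F3, 3 before 1 start of PLAU, 2 before TFPI2 and 1 and 2 in the windows of SERPINE2. GCGNGGGCG, the EGR1 motif, has 1 match each before F3, PLAUR and TFPI2, of which those before F3 and TFPI2 overlap an SP1 box, and is found in 8.41% of windows. TATAAA is present before F3 and SERPINB2 and in 10.7% of windows. An NF-κB motif match was seen only before TFPI2 (5.21% of windows), CACGTG, the E-box, only in 1 window of SERPINE2 (6.34%), and TGACGTCA, the CRE, in no window of these genes (1.65%).

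Differences are log2 values of the processed intensity after the 75th percentile of each array was subtracted, and folds are taken from them. A gene was compared when at least 1 of the arrays set against each other measured its probe well above background, and was called higher or lower at 1.5-fold. Under CAN, 4 of 7 compared genes were called higher (F3, PLAUR, SERPINE2 and THBD), against 27.5% of the 16644 genes compared, and 1 was called lower (PLAT), against 34.1%. Under OA, 6 of 8 were called higher (F3, PLAUR, THBD, SERPINE2, SERPINB2 and TFPI), against 28.1% of 16166 genes, and 0 were called lower, against 28.8%. The median log2 difference was 2.00 under CAN and 2.27 under OA, where the medians over all compared genes were -0.16 and 0.01. PLAT under CAN and SERPINB2 under OA were measured on 1 of the arrays only, and among genes measured on both, 4 of 6 were higher and 0 lower under CAN, and 5 of 7 higher and 0 lower under OA. With no filter, which takes in TFPI2 and SERPINB2, the median under CAN was 0.20, and with normexp the median under OA was 1.36. Fewer cells of a type and less RNA per cell cannot be told apart in such extracts.

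**Figure D1:**
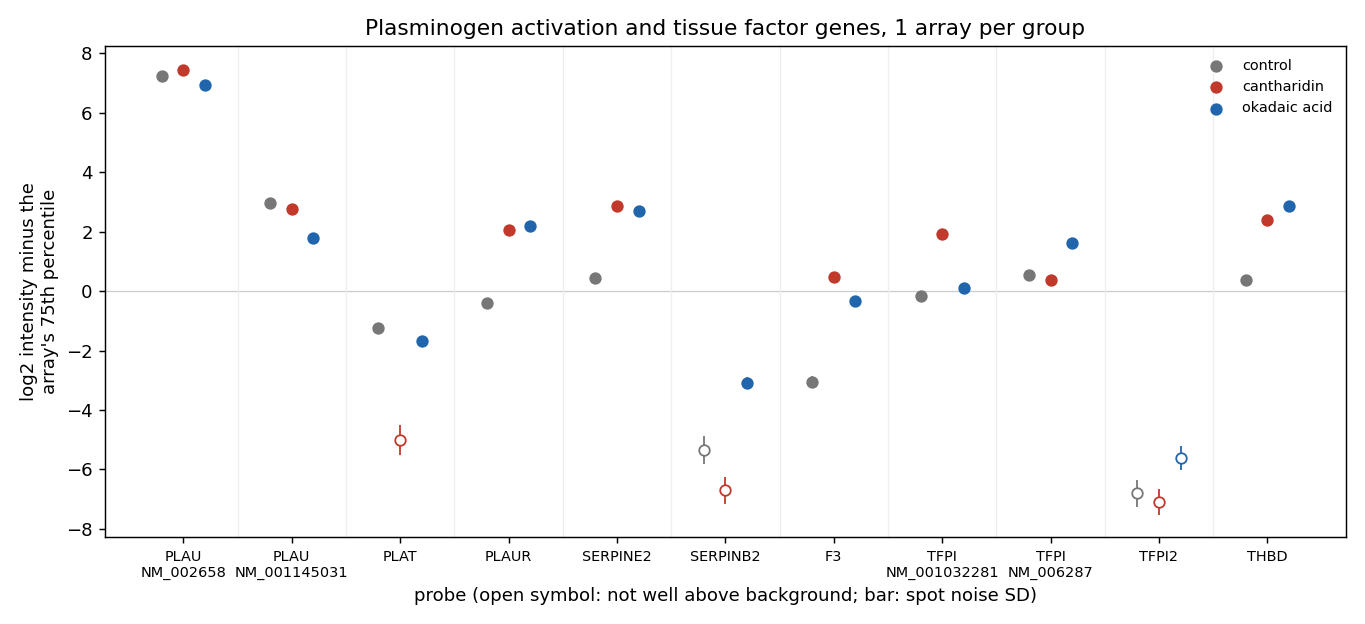
Log2 intensity minus the 75th percentile of the array (y axis) for the 11 probes (x axis), with 1 point per array for control, CAN and OA. Open points were not well above background, and bars are the SD among replicate spots of probes of like brightness on that array. PLAUR, SERPINE2, F3 and THBD lie 2.00 to 3.52 log2 units above control on both treated arrays, while PLAT falls below the background limit only under CAN.

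Urokinase, the activator that works at cell surfaces, differed by less than 1.5-fold on its first probe. The first PLAU probe (NM_002658) was printed in 10 spots, with an intensity of 117614 in control, 122995 under CAN and 113346 under OA. Its spots ran from 106655 to 126035 in control (median 120680), from 115301 to 134000 under CAN (median 123793) and from 103030 to 122735 under OA (median 114777). These ranges overlapped before scaling. In units of the 75th percentile of the array they were 136 to 161 in control, 162 to 188 under CAN and 110 to 131 under OA, with no overlap. The scaled differences of 0.20 for CAN and -0.31 for OA exceeded the spot noise of 0.11. Without scaling they were 0.06 and -0.05, in the same order but smaller than that noise. The second PLAU probe, designed on the transcript NM_001145031, read 6191 in control, 4896 under CAN and 3220 under OA. That probe was 2.30-fold lower under OA (log2 difference -1.20) and 1.15-fold lower under CAN. The PLAU probes thus differed in size under OA, by 0.89 log2 units, and in sign under CAN, at 0.20 and -0.20. Of 2814 genes with several probes measured on all arrays, 35.9% had a wider spread than PLAU under OA and 61.6% under CAN. Which transcripts each of the PLAU probes binds was not tested.

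Tissue-type plasminogen activator was lost from view under CAN alone. PLAT read 334 in control, 22.1 under CAN and 289 under OA, each a mean over 10 spots. Control spots lay between 305 and 348, CAN spots between 18.9 and 28.8 and OA spots between 268 and 324. No CAN spot reached the spots of the other arrays, and only 1 of the 10 CAN spots was well above background. PLAT was therefore at least 13.8-fold lower under CAN than in control, and at least 9.98-fold higher under OA than under CAN. Under OA it was 1.38-fold lower than control, inside 1.5-fold. The normexp background correction, which draws dim signals together, gave a log2 difference of -1.87 under CAN in place of -3.78.

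**Figure D2:**
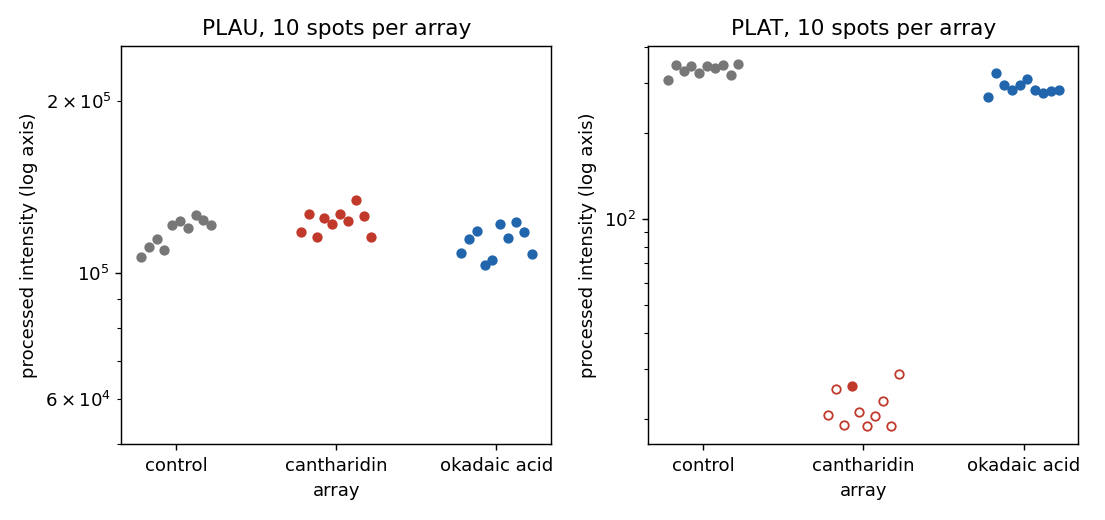
Processed intensity (y axis, log scale) of each of the 10 spots per array (x axis) for the first PLAU probe and the PLAT probe, before scaling between arrays. Filled points were well above background and open points were not. The PLAU spots overlap between arrays on this unscaled axis, while the CAN spots of PLAT lie between 18.9 and 28.8, below every control and OA spot.

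The urokinase receptor rose by a like amount with either agent. PLAUR read 600 in control, 2951 under CAN and 4248 under OA, well above background on each array. The log2 difference was 2.44 under CAN and 2.57 under OA, each with a spot noise of 0.13 or less (SD expected from replicate spots of like brightness). Between the agents PLAUR differed by 0.13, the size of the spot noise itself. Of the 14900 genes measured on both the control and CAN arrays, 641 (4.3%) had a larger difference, and of 14428 under OA, 476 (3.3%). Across the alternative settings the PLAUR difference lay between 2.29 and 2.51 under CAN and between 2.36 and 2.82 under OA.

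SERPINE2 (protease nexin 1), which blocks urokinase and thrombin, rose together with the receptor. Its intensity was 1062 in control, 5190 under CAN and 6138 under OA. This amounted to 5.38-fold under CAN and 4.84-fold under OA, with log2 differences of 2.43 and 2.27 and spot noise of 0.10 and 0.08. The agents differed by 1.11-fold for SERPINE2. Its alternatives ranged from 2.24 to 2.50 under CAN and from 2.15 to 2.53 under OA.

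SERPINB2 (plasminogen activator inhibitor 2), an inhibitor of urokinase found in monocytes and keratinocytes, crossed the background limit only under OA. It read 19.3 in control and 6.81 under CAN, neither well above background, and 110 under OA. The OA signal was 1.90 times the background limit (the lowest signal that an array measured well above background), so it stood close to it. SERPINB2 was at least 2.64-fold higher under OA than in control and at least 3.83-fold higher than under CAN, while no fold can be given for CAN against control. The normexp background correction lowered its log2 difference under OA from 2.26 to 0.74.

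Tissue factor, the cell surface starter of clotting, rose with both agents and more with CAN. F3 read 94.7 in control, 988 under CAN and 737 under OA, and its control signal was 2.71 times the background limit. The log2 difference was 3.52 under CAN (spot noise 0.22) and 2.70 under OA (spot noise 0.21), which is 6.52-fold for OA. Only 169 of 14900 genes (1.13%) had a larger difference under CAN, and 417 of 14428 (2.89%) under OA. Directly compared, OA was 1.76-fold lower than CAN for F3, with a difference of -0.82 and a spot noise of 0.13. Without scaling between arrays this difference was -0.42, inside 1.5-fold. The control level of F3 was dim, and with normexp its differences were 2.41 under CAN and 1.67 under OA, while the deposited normalized table gave 4.0 and 3.14.

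TFPI, which inhibits the complex of tissue factor and factor VII, depended on the probe. The probe on NM_006287, the record of the long secreted form, read 1138 in control, 919 under CAN and 2886 under OA. The probe on NM_001032281, the record of the shorter form held at the membrane, read 703 in control, 2714 under CAN and 1013 under OA. The first probe was highest under OA and the second under CAN. On the first, TFPI was 1.12-fold lower under CAN and 2.12-fold higher under OA than control. On the second, it was 4.25-fold higher under CAN and 1.21-fold higher under OA. Set against CAN, OA was 2.39-fold higher on the first probe and 3.52-fold lower on the second, with spot noise of 0.13 log2 units for each.

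The distance between the TFPI probes depended on the comparison. In that of OA with CAN their log2 differences lay 3.07 apart, and 27 of 2814 genes with several probes measured on all arrays (0.959%) showed a wider spread. Against control the spread was 2.26 under CAN, with 9.42% of genes wider, and 0.82 under OA, with 39.4% wider and a median of 0.62. Probes past 1.5-fold in opposite directions between OA and CAN occurred in 115 of these genes (4.09%). The brighter first probe stands for TFPI in the counts, and the median over its probes turned the OA against CAN difference from 1.26 to -0.28. Whether each probe binds only the transcript of its record was not tested.

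TFPI2, an inhibitor of plasmin and matrix proteases that resembles TFPI, was not measured. Its signals of 7.0 in control, 5.20 under CAN and 19.0 under OA stayed too near background on every array to give a fold.

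Thrombomodulin, the cofactor with which thrombin activates protein C, rose with both agents and more with OA. THBD read 1024 in control, 3713 under CAN and 6844 under OA. It was 3.99-fold higher under CAN and 5.60-fold higher under OA, with log2 differences of 2.00 and 2.49 and spot noise of 0.13 and 0.09. The difference between the agents was 0.49 (1.40-fold), above the spot noise of 0.12 and inside 1.5-fold, and it reached 0.88 without scaling. Larger differences than that of THBD were found for 6.72% of genes under CAN and 3.63% under OA.

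**Figure D3:**
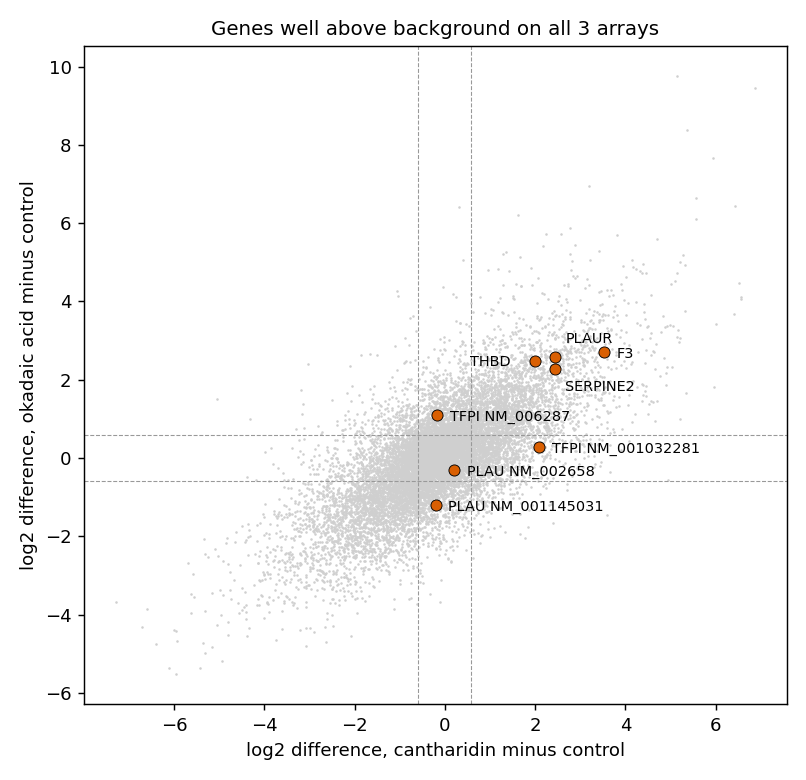
Log2 difference of OA from control (y axis) against that of CAN from control (x axis) for 14222 genes well above background on all 3 arrays (grey) and the probes of the 9 genes that met this (orange), with dashed lines at 1.5-fold. Both axes use the same control array. F3 lies at 3.52 and 2.70, apart from PLAUR (2.44 and 2.57), SERPINE2 (2.43 and 2.27) and THBD (2.00 and 2.49). The TFPI probes sit at -0.17 and 1.09 and at 2.09 and 0.27.

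Set directly against CAN, OA gave higher signals for 3 of 8 compared genes (PLAT, SERPINB2 and TFPI), against 29.5% of 16200 genes, and a lower signal for 1 (F3), against 22.3%. The shares were thus near those of all genes. The median difference of the 8 genes was 0.31 and that of all genes 0.13. PLAT and SERPINB2 were not well above background under CAN, so both enter as bounds, and TFPI depends on its probe as given above. PLAUR, SERPINE2, THBD and the first PLAU probe differed by less than 1.5-fold between the agents.

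To find genes with the most similar pattern, the distance between pairs of log2 differences (CAN and OA against control) was taken over the genes measured on all 3 arrays. Nearest to F3 were SNHG12, PDLIM5 and ZNF202, at distances of 0.099, 0.116 and 0.120, and 10 genes lay within 0.25. For PLAUR these were ING1, CAVIN1 and ARMC5, at 0.047, 0.066 and 0.073, with 40 genes within 0.25. With 3 arrays, such likeness rests on 2 differences per gene.

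Partners of the plasmin system had more calls lower than higher under both agents. Of 23 listed genes, 18 were compared under each agent, and 1 was called higher and 8 lower under CAN, and 0 higher and 8 lower under OA, at medians of -0.46 and -0.43. All genes compared also leaned lower under CAN (34.1% lower, 27.5% higher), and under OA were called lower in 28.8% and higher in 28.1%. NID1 (nidogen, a basement membrane protein that plasmin cuts) showed log2 differences of -2.71 under CAN and -2.88 under OA. PLGRKT, a plasminogen receptor, gave -1.80 and -1.71, and F12, a plasma protease that can activate plasminogen, -1.34 and -1.44. Among other surface binders of plasminogen, ANXA2 gave -0.93 and -1.27, and ENO1 -0.43 and -1.89. SERPINI1 (neuroserpin, an inhibitor of PLAT) gave -1.92 and -0.98, and VLDLR, which takes up complexes of proteases and serpins, -1.68 and -0.71. No array measured plasminogen itself (PLG) well above background.

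The only call higher under CAN in that list was MFGE8, a secreted glycoprotein, at 2.06-fold. SERPINF2, the main inhibitor of plasmin, was called lower under CAN at 1.63-fold and was 1.16-fold higher under OA.

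Coagulation factors and the enzymes that process them also had more calls lower than higher. Of 14 compared under CAN, 1 was called higher and 9 lower, with 0 and 7 of these measured on both arrays, and of 13 under OA, 2 were called higher and 6 lower, with 2 and 4 measured on both, beside 34.1% of all genes lower under CAN and 28.8% under OA. The medians were -0.79 and -0.44. The call of F2 (prothrombin) under CAN and those of FGB (fibrinogen beta chain) and LMAN1 under OA were set against a dim signal, with bounds of only 1.28-fold, 1.31-fold and 1.07-fold. GGCX, the carboxylase that modifies vitamin K-dependent factors, gave -0.90 and -1.05, and VKORC1, which recycles vitamin K, -0.81 and -0.65. Its relative VKORC1L1 gave -0.87 under CAN and LMAN1, which carries factors V and VIII through the secretory pathway, -0.79. The LMAN1 signals were only 1.49 (control) and 1.25 (CAN) times the background limit, with a spot noise of 0.55 for that difference. MCFD2, the partner of LMAN1, was 2.31-fold lower under CAN and 2.00-fold higher under OA. Under OA, VWF (von Willebrand factor) gave -0.99, FGG (fibrinogen gamma chain) 0.94 and F8 (factor VIII) -0.76. F7, the ligand of tissue factor, lay near the limit, at 48.0 in control, 37.8 under CAN and 60.8 under OA, the last not well above background.

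Natural anticoagulants, a list that includes TFPI, TFPI2 and THBD, were divided. Under CAN 4 of 8 were called higher and 2 lower (median 0.38), and under OA 3 of 7 higher and 3 lower (median 0.18). All genes were called higher in 27.5% and lower in 34.1% under CAN and in 28.1% and 28.8% under OA. ANXA5, which covers the phospholipids that clotting needs, was 2.77-fold higher under CAN and 1.53-fold higher under OA. PROC (protein C) was 1.91-fold higher under CAN. PROS1 (protein S, its cofactor) was 2.47-fold lower under CAN and 1.65-fold lower under OA, PROCR (the protein C receptor) 1.60-fold lower under OA, and GAS6, a relative of protein S, 8.20-fold lower under CAN and at least 6.68-fold lower under OA. The CAN signal of GAS6 was only 1.64 times the background limit, with a spot noise of 0.41 for that difference. The rise of SERPINC1 (antithrombin) under CAN was set against a dim control, with a bound of only 1.03-fold.

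The 4 receptors that thrombin and related proteases cut moved in both directions, with 1 called higher and 2 lower under CAN and 1 higher and 1 lower under OA (median log2 differences -2.02 and -0.23). The shares of all genes were 27.5% higher and 34.1% lower under CAN and 28.1% and 28.8% under OA. With 4 genes, the counts under OA and the count higher under CAN are near these shares. F2R, the main thrombin receptor, read 915 in control, 53.8 under CAN and 85.7 under OA, which was 15.5-fold and 12.8-fold lower. Both treated signals of F2R stood close to the background limit, at 2.46 (CAN) and 1.48 (OA) times it. The spot noise of these differences was 0.33 and 0.25 log2 units. F2RL1, a receptor for trypsin and for the complex of tissue factor and factor VII, read 15606 in control, 1098 under CAN and 15549 under OA. It was thus 12.9-fold lower under CAN and 1.20-fold lower under OA, and the treated arrays differed by 10.8-fold, a comparison added after the values were seen. F2RL2 was also added on seeing its values. It was not well above background in control (29.2) and read 757 under CAN and 498 under OA, at least 23.8-fold and 11.9-fold higher. F2RL3 stayed within 1.5-fold.

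**Figure D4:**
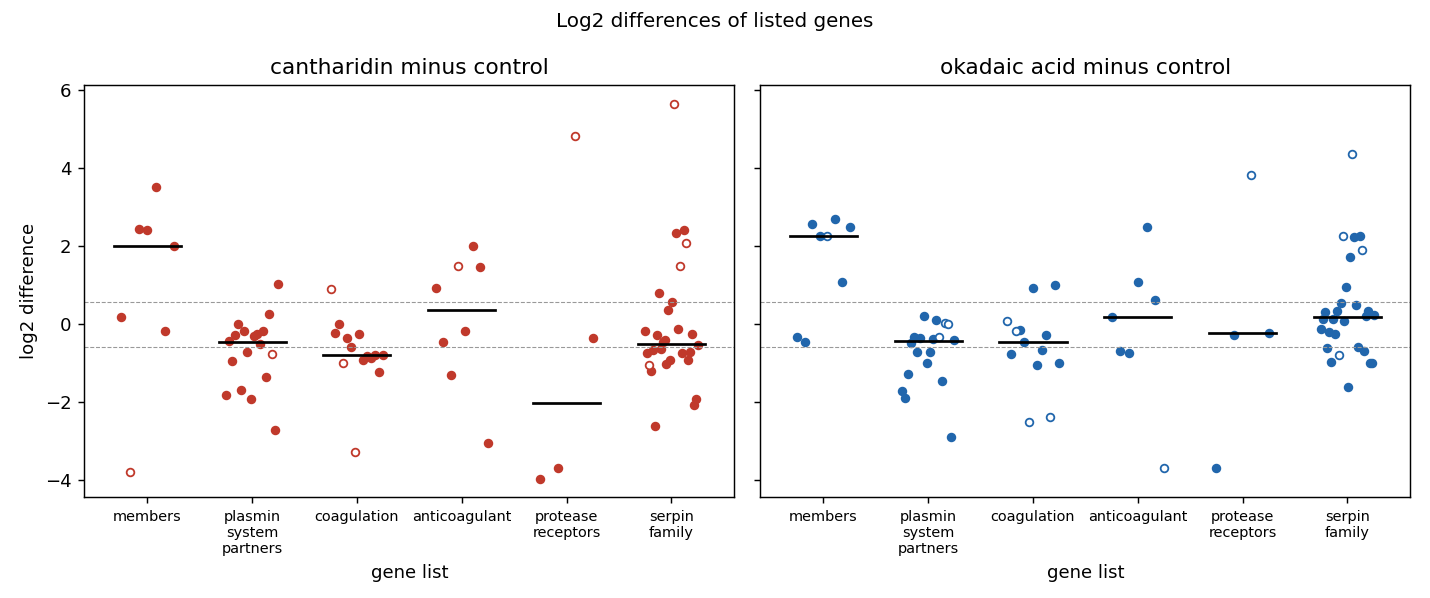
Log2 difference from control (y axis) under CAN (left) and OA (right) for each compared gene of the described genes and of 5 related lists (x axis), with black bars at the medians and dashed lines at 1.5-fold. Open points failed the background limit on 1 array. The described genes have medians of 2.00 and 2.27, while those of the plasmin system partners are -0.46 and -0.43 and those of coagulation -0.79 and -0.44.

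Markers were used to check the cells. All 7 epithelial and ductal markers were well above background in control and 6 on each treated array, where CDH1 was not. CDH1 was at least 6.34-fold lower under CAN and at least 3.43-fold lower under OA, and EPCAM 3.42-fold and 2.20-fold lower. KRT18 was 1.99-fold and 2.29-fold higher, and KRT19 1.36-fold and 2.59-fold higher. KRT8 was 2.25-fold and 1.17-fold lower, KRT7 1.48-fold and 1.67-fold lower and MUC1 1.55-fold and 2.02-fold lower. Together the 7 epithelial markers summed to 188 in control, 232 under CAN and 288 under OA, in units of the 75th percentile. VIM, a mesenchymal trait of this line, differed by 1.07-fold under CAN and was 1.57-fold lower under OA. Of 6 markers of endothelium, a main site of THBD and TFPI, CDH5, VWF and ESAM were well above background on all 3 arrays, and PECAM1, TEK and CLDN5 on none. The summed endothelial signal, in units of the 75th percentile of the array, was 3.79 in control, 3.25 under CAN and 2.44 under OA. All 4 immune markers were well above background, with a sum of 4.22, 3.57 and 12.9, and CD14, a monocyte marker, read 2535, 1838 and 11044. The 3 platelet markers summed to 0.490, 0.372 and 0.673. Of 4 fibroblast markers, 2 were well above background in control, 2 under CAN and 1 under OA, with COL1A1 at least 21.9-fold lower under CAN and at least 10.9-fold lower under OA, and PDGFRB at least 11.8-fold higher under CAN. PRSS1, an acinar marker, was 2.49-fold higher under CAN. The part of these signals in the values of PLAUR, SERPINB2, F3 and THBD was not tested.

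**Figure D5:**
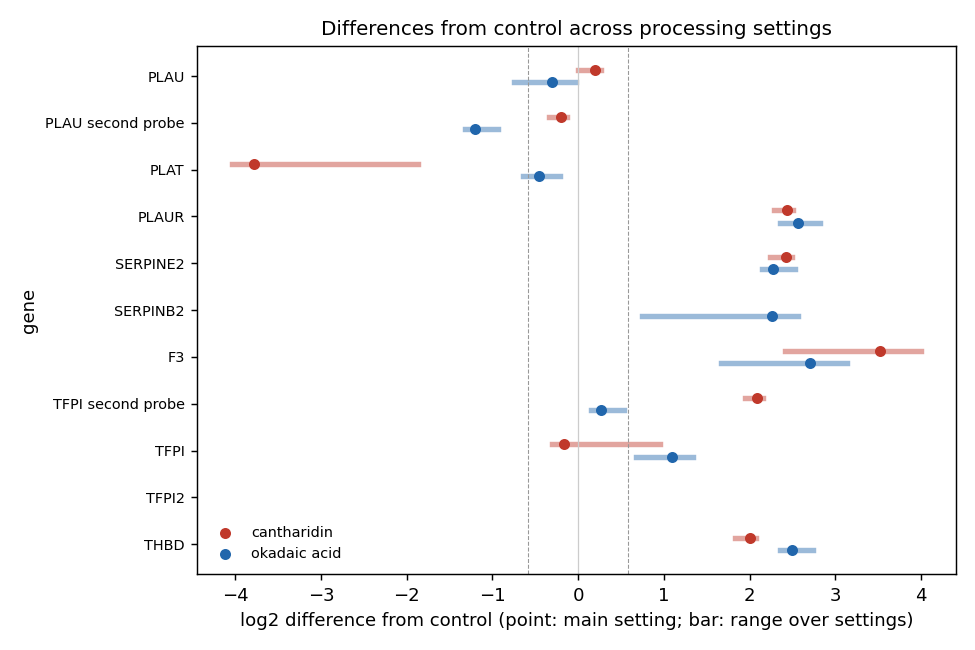
Log2 difference from control (x axis) of each probe (y axis) under CAN and OA. Points are the values described in the text, bars span the alternative processing settings and dashed lines mark 1.5-fold. PLAUR, SERPINE2 and THBD vary little, F3 lies between 2.41 and 4.0 under CAN, and SERPINB2 reaches down to 0.74 under OA.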

How the data were processed

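Gene expression was measured on 3 Agilent 1-colour arrays (Cy3) hybridised with total RNA, 1 per group, and the sample titles gave the groups. Spot intensity values were deposited by the authors, made with Feature Extraction 11.0.1.1 according to the file headers, background-subtracted within each array and not scaled between arrays. A second deposited table holds normalized log2 values of the same arrays, made in a way not given in the sources used here, and was an alternative. The arrays shared 1 slide and 1 scan, and slide position and group cannot be told apart. Intensities corresponding to the 75th percentile were 784 (control), 713 (CAN) and 936 (OA), and the lowest signals well above background were 35.0, 21.9 and 58.0. No spot was saturated.

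Log2 intensities were averaged over spots without outlier flags, leaving 34041 probes, and the 75th percentile of each array was subtracted. A gene took its probe with the highest mean signal. A fold against a dim array, with no signal well above background, is a lower bound: the dim side was set to its own signal or to the lowest signal well above background there, whichever was higher. Spot noise was the SD of log2 among replicate spots, over probes within 1 log2 unit of brightness, combined over both arrays. It drew on probes with several spots free of outlier flags, 999 on the control array. It covers spots only, and the number of arrays limits the precision. Probe accessions were named through RefSeq transcripts of GRCh38.p14. Since the array annotation used hg19, no probe coordinates are given.

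The members and lists were chosen with earlier results of these data known. Every member and probe is named. Of the 5 related lists, genes measured on both arrays and past 1.5-fold against control are named, at most the 5 with the largest difference per list and agent, and the 3 genes nearest to F3 and PLAUR. F2, F7, FGB, PLG, MFGE8, SERPINC1, F2RL2, F2RL3, SERPINF2 and SERPINB8, F2RL1 between the agents, and the single markers of cell types were named besides, after their values were seen. CPB2 had no matched probe. No test across arrays was made. Calls were tested on simulated data, which checks the calling steps and not the variation between cultures. There were 11 alternatives, made with R 4.3.3, limma 3.58.1, Python 3.11.15, numpy 2.4.6, pandas 2.3.3 and matplotlib 3.10.9. They were normexp background correction (offset 50), scaling to the median, to the 75th percentile of probes detected on all arrays, by quantiles or not at all, no filter, a filter on all 3 arrays, the deposited table, a 2-fold threshold, the median over probes and dim signals set to the floor. Mean spot signals were not used here, and normexp was run on medians.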

Additional observations from a re-analysis of the deposited data

Results flagged for a closer look

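MCFD2, the cargo receptor partner of LMAN1, passed 1.5-fold in opposite directions, with a log2 difference of -1.21 under CAN and 1.0 under OA, both against the same control array. It was the only 1 of 56 probes measured on all 3 arrays, over the described genes and the related lists, to do so. The difference between the agents was not tested.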

How the results depend on the processing

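Of 66 counts of called genes recomputed under the 11 alternatives, 57 stayed within 1.5 times their value and 9 moved. PLAT was the gene called lower under CAN, and this count was 2 with no filter and 0 with the filter on all 3 arrays. Under OA against control the count lower, at 0, became 1 with the deposited table and 1 with the median over probes. Between the agents, the count higher fell from 3 to 1 with the filter on all 3 arrays, and the count lower, at 1, became 2 with median scaling, 2 with the median over probes, 0 with no scaling and 0 at a 2-fold threshold. The median over probes also turned the TFPI difference of OA from CAN to -0.28. Filters change which genes are compared, and the cause of the other moves was not tested. Of 609 further values, 489 stayed, 119 moved and 1 reversed. For the related lists the counts spanned wider ranges, lowest mostly at 2-fold or with normexp and highest mostly with no filter or no scaling. Plasmin system partners called lower ranged from 5 to 10 under CAN (8 as reported) and from 5 to 9 under OA (8), coagulation genes called lower from 2 to 10 (9) and from 3 to 7 (6), and anticoagulants called higher from 2 to 5 (4) and from 2 to 6 (3). Serpins called lower ranged from 6 to 17 under CAN (13) and from 1 to 8 under OA (8), those called higher from 3 to 7 (6) and from 4 to 11 (7), and those higher under OA than CAN from 5 with normexp to 20 with no filter (14). Leaving out the scaling shifted the median of all genes to -0.30 under CAN, 0.26 under OA and 0.52 between the agents. No paired analysis was possible because each group had 1 array, and for the same reason no array could be left out. Signals near the background limit (PLAT under CAN, SERPINB2, F3 in control, F2R under both agents, GAS6 under CAN) limit the size of their differences.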

Other observations

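The serpin family, of which SERPINE2 and SERPINB2 are members, was compared as a whole. Of 36 serpin genes with a probe, 28 were compared against control, where 6 were called higher and 13 lower under CAN (median log2 difference -0.49) and 7 higher and 8 lower under OA (median 0.18). The shares over all genes were 27.5% and 34.1% under CAN and 28.1% and 28.8% under OA, so the serpin counts under OA were near them. Directly compared, OA gave higher signals than CAN for 14 of 29 (median 0.58) and lower signals for 3, beside 29.5% and 22.3% of all genes. This depended on the background correction, since with normexp 5 serpins were higher and 3 lower, when 19.5% of all genes were higher and 18.5% lower. SERPINA6, the cortisol carrier, read 12109 in control, 1808 under CAN and 7479 under OA, which was 6.09-fold and 1.93-fold lower. SERPINH1, a collagen chaperone, was 4.19-fold and 1.98-fold lower. SERPINB9, an inhibitor of granzyme B, was 5.09-fold and 4.72-fold higher. SERPINB7 was 3.32-fold higher under OA, and SERPINB6 was 1.88-fold lower under CAN and 3.06-fold lower under OA. SERPINB8, named after its values were seen, was not well above background in control (28.6) and read 1309 under CAN and 712 under OA, at least 41.2-fold and 17.0-fold higher.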
